A study of Homo sapiens with 3 samples.

Results

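The transcripts described here encode proteins of mitosis, the kinetochore and cell-cycle control, and they were chosen by gene name. The rule took the CENP proteins, kinesins, cyclins, cyclin-dependent kinases (CDKs), subunits of the anaphase-promoting complex (APC/C), Aurora, Polo-like and BUB kinases with their partners, and a few single names such as TOP2A and BIRC5. Names of this kind were found in at least 1 library for 109 genes. Of these, 106 were listed in all 3 libraries, out of 8812 transcripts listed in all 3 (1 transcript per gene). AURKC, CENPVL3 and KIF6 were listed in only some of the libraries. CCNA2, CCND3, CCNE2, CDK2, PLK1, TPX2, BUB1B, MAD2L1, NDC80 and PTTG1 are not analysed here.

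Ribosome profiling was performed in HEK293T, a human embryonic kidney line that carries SV40 large T antigen, a protein that inactivates p53 and RB and so takes away brakes on the cell cycle. Cells were left untreated (0 µg/mL, Untreated A and Untreated B) or received G418 at 500 µg/mL for 24 hours (G418 A). The drug is an aminoglycoside and loosens the decoding step of translation, so that some ribosomes insert an amino acid at a stop codon and continue. Both conditions thus come from a single transformed line, and the G418 group has 1 library.

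Sequencing depth was 5857230 ribosome-protected fragments (RPFs) for Untreated A, 9477972 for Untreated B and 7216039 for G418 A. Of 8 markers of HEK293T, 6 were listed in all 3 libraries (CDH2 in none, PAX2 in Untreated B alone). Of 6 markers of other cell types, COL1A1 was listed in all 3 at 7.98 to 10.7 RPKM, HBA1 in Untreated B and G418 A at 1.07 and 1.05 RPKM, and PTPRC, CD3E, ALB and PECAM1 in none. Of the 106 genes, 89 passed a minimum on the mean number of RPFs over the coding sequence (CDS), as did 5684 transcripts in all. Values below use these, and the 17 with fewer are summarised separately. On the log2 scale, CDS densities of these 89 genes in the untreated libraries had a Pearson correlation of 0.99 across genes. RPFs measure ribosomes on an mRNA. Fewer cells in mitosis, less mRNA per cell and slower initiation on that mRNA cannot be told apart in these libraries.

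A dividing cell is driven by CDKs that act with short-lived cyclins. CDK4 and CDK6 with D cyclins act in G1, cyclin E at the entry into S phase, and CDK1 with cyclin B at the entry into mitosis. Chromosomes are then attached to the spindle through the kinetochore, which the CENP proteins anchor to the centromere, while kinesins move chromosomes and slide or shorten microtubules. The spindle checkpoint holds back the APC/C, a ubiquitin ligase, until every kinetochore is attached, after which cyclin B and securin are destroyed and the cell divides.

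The 89 genes ranged widely in CDS density, with a median above that of all transcripts. Over the 89 genes, the median CDS density was 50.01 RPKM in untreated cells (mean of the libraries) and 52.9 RPKM in G418 A, compared with 38.3 and 41.7 RPKM over all transcripts. CDK1 ranked first of the 89 in each library, at 637, 525 and 631 RPKM in Untreated A, Untreated B and G418 A. CENPW, a small histone-fold subunit of the inner kinetochore, reached 521, 485 and 409.8 RPKM. CCNB1, the cyclin B1 partner of CDK1, stood at 475, 482 and 478 RPKM. The least occupied of the 89 included the large kinesins KIF24, KIF13A, KIF13B and KIF4B, among the last 5 genes of each library at 3.71 to 5.69 RPKM.

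G418 changed few of these genes by the test across all transcripts. With edgeR's quasi-likelihood test and an adjusted p below 0.05, 2 of 89 (2.25%) were higher in G418 A and 0 were lower. The background was 2.66% of 5684 transcripts (1.94% higher and 0.721% lower). At an unadjusted p below 0.05, 8 were higher and 11 lower, against 8.09% and 5.54% of all transcripts, and DESeq2 called 1 higher and 0 lower, with 3 and 6 at an unadjusted p below 0.05 and no adjusted p for 50 of the 89. In this fit the lone G418 library is assumed to vary like the untreated libraries. The study describes biological replicates, but the labels name no culture for these libraries, and p-values measure only the spread between these samples. In the edgeR fit this spread was shared over all transcripts (infinite prior degrees of freedom). A gene's own difference between the untreated libraries thus had no weight in its edgeR p-value.

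CDK4 had the largest change of the 89. Its CDS density was 94.8 and 100.5 RPKM in untreated cells and 208 RPKM in G418 A, far above both untreated libraries, which lay close together. The log2 ratio of CDS RPM (G418 A to the mean of the untreated libraries) was 1.09 (edgeR adjusted p = 4.13e-05, 8.43e-07 to 0.0118 under the other settings). Only 1.06% of all transcripts had a log2 ratio of 1 or more. ANAPC5, a scaffold subunit of the APC/C, rose from 57.0 and 56.3 RPKM to 91.1 RPKM, a log2 ratio of 0.69 (edgeR adjusted p = 0.0356). That call was lost with DESeq2 (adjusted p = 0.151) and without the minimum of reads (edgeR adjusted p = 0.082).

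A description by size takes in more genes. At a log2 ratio of at least 0.5, 8 genes (8.99%) were higher in G418 A, where the background was 10.7% of transcripts. At −0.5 or less there were 5 (5.62%), where the background was 2.62%, and at −1 or less 0 (background 0.088%). Without Untreated B the 5 became 2, and with TMM scaling 7. For Untreated B over Untreated A the same limits were passed by 4 and 2 of the 89 genes and by 7.04% and 1.86% of all transcripts. G418 A lay above both untreated libraries for 36 genes (40.4%, background 46.3%), below both for 36 (40.4%, background 27.9%) and between them for 17. The median log2 ratio of the 89 genes was −0.0028, beside 0.07 over all transcripts. Scaling by TMM moved these medians to −0.073 and 0.00.

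**Figure D1:**
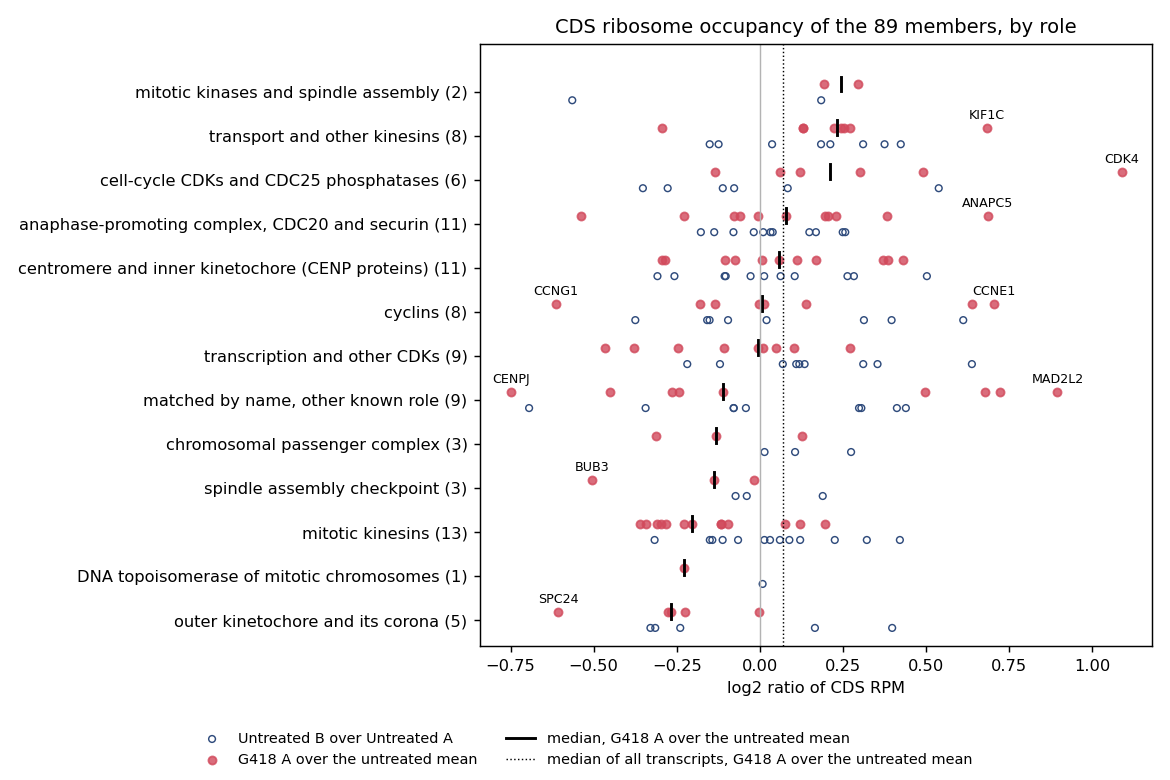
Log2 ratio of CDS RPM for each of the 89 genes, by role (x axis, log2 ratio; y axis, role with its number of genes). Filled red points are G418 A over the untreated mean, black bars their medians, open blue points Untreated B over Untreated A, and the dotted line is the median of all transcripts in G418 A (0.07). CDK4 lies farthest to the right at 1.09, and the lists of the outer kinetochore, mitotic kinesins and checkpoint lie mostly to the left of 0.

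Among the CDKs that run the cell cycle and the CDC25 phosphatases that switch them on, G418 A exceeded both untreated libraries for 4 of 6 and lay below both for none (background 46.3% and 27.9%). The median log2 ratio was 0.21 (0.15 over Untreated A alone, 0.38 over Untreated B alone), and CDK6 exceeded Untreated A only by 42.83 against 42.68 RPKM. CDC25A had 31.1, 29.5 and 42.6 RPKM in Untreated A, Untreated B and G418 A, a log2 ratio of 0.49 (edgeR adjusted p = 0.413). CDK7, the CDK-activating kinase, had 61.3, 48.0 and 67.4 RPKM. CDK1, CDK6 and CDC25B stayed near their untreated levels: the log2 ratio was 0.12 for CDK1, 0.06 for CDK6 and −0.13 for CDC25B, each smaller than the log2 ratio between their untreated libraries (−0.28, −0.11 and 0.54).

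Cyclins lay on both sides of 0. CCNE1 (cyclin E1) measured 24.6 and 23.04 RPKM in untreated cells and 38.8 RPKM in G418 A, a log2 ratio of 0.70 (edgeR adjusted p = 0.237). CCNH, the partner of CDK7, measured 69.6, 53.7 and 96.1 RPKM, a log2 ratio of 0.64 (edgeR adjusted p = 0.123). Both lay above each untreated library, but neither passed the adjusted threshold. CCNG1, a cyclin induced by p53, had the lowest value of the list, with 189.5 and 289.7 RPKM in untreated cells and 157 RPKM in G418 A (log2 ratio −0.61, edgeR adjusted p = 0.075). Its untreated libraries themselves differed by a log2 ratio of 0.61, and the counted isoform has only 291 nt of CDS. The mitotic cyclins CCNB1 and CCNB2 had log2 ratios of −0.00 and 0.14, CCND1 and CCND2 had −0.13 and −0.18, and CCNF, the substrate receptor of an SCF ubiquitin ligase, had 0.01. The median of the 8 cyclins was 0.01, and it was −0.06 with TMM scaling.

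Subunits of the APC/C and its activator CDC20 were spread around 0, with a median log2 ratio of 0.08 over 11 genes (0.01 with TMM scaling). Above both untreated libraries lay 6, below both 2. ANAPC2, the cullin subunit, was at 21.2, 25.4 and 16.04 RPKM in Untreated A, Untreated B and G418 A, a log2 ratio of −0.54 (edgeR adjusted p = 0.191). ANAPC11, the RING subunit that works with ANAPC2, was at 140.4, 144 and 151 RPKM. The ANAPC11 isoform counted has 558 nt of CDS. Thus 3 subunits of a single complex, ANAPC5, ANAPC11 and ANAPC2, had log2 ratios of 0.69, 0.08 and −0.54. CDC20, which activates the complex in mitosis, was at 166, 198 and 174 RPKM and remained between the untreated libraries.

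Genes of the outer kinetochore, checkpoint, passenger complex, mitotic kinases and mitotic kinesins, pooled with TOP2A and without the inner kinetochore, had a median log2 ratio of −0.20 over 27 genes. G418 A lay below both untreated libraries for 17 of them (background 27.9%), above both for 6 (background 46.3%) and between for 4. The median was −0.12 over Untreated B alone, −0.16 over Untreated A alone and −0.27 with TMM scaling. With the 11 genes of the centromere and inner kinetochore added, the median over 38 genes was −0.12. Of these 38, 21 lay below and 10 above both untreated libraries. These lists were joined after their values were seen, no gene of them passed the edgeR threshold, and no test was made of the group.

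For the outer kinetochore, 4 of 5 genes lay below both untreated libraries (background 27.9%) and the median log2 ratio was −0.27 (−0.11 over Untreated B alone, −0.34 over Untreated A alone). SPC24, a subunit of the NDC80 complex that grips microtubules, had 73.3 and 96.7 RPKM in untreated cells and 55.8 RPKM in G418 A (log2 ratio −0.61, edgeR adjusted p = 0.168). Its partner SPC25 had 228, 183 and 169.7 RPKM, and CENPF, a large protein of the kinetochore corona, had 59.97, 67.3 and 52.9 RPKM. CENPE, a kinesin of the corona, had a log2 ratio of −0.23. NUF2, another subunit of the NDC80 complex, was the exception with 84.0, 66.9 and 75.3 RPKM. Of the checkpoint genes, BUB3 had a log2 ratio of −0.51 (368 and 419 RPKM untreated, 277 RPKM in G418 A, edgeR adjusted p = 0.075), whereas BUB1 and the kinase TTK had −0.14 and −0.02. The BUB3 isoform counted has 405 nt of CDS.

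The centromere and inner kinetochore (CENP proteins) lay near 0 as a list. Over 11 CENP genes the median log2 ratio was 0.06 (−0.01 with TMM scaling), with 4 above and 4 below both untreated libraries. CENPN, which reads the CENP-A nucleosome, was at 47.8, 40.0 and 59.1 RPKM, a log2 ratio of 0.43. At the other end, CENPW had a log2 ratio of −0.30. CENPA itself, the centromeric histone H3 variant, was below the read minimum with 55, 72 and 125 CDS reads (log2 ratio 1.03).

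In the chromosomal passenger complex, which corrects faulty attachments, the subunits lay on both sides of 0. AURKB, its kinase, was at 180.3, 182 and 146 RPKM, a log2 ratio of −0.31 (edgeR adjusted p = 0.337). BIRC5 (survivin) was at 271, 291 and 307 RPKM, and the scaffold INCENP at 38.6, 46.7 and 38.9 RPKM. AURKA, the spindle-pole kinase, had 85.6, 97.3 and 105 RPKM, above both untreated libraries by less than their own distance. PLK4, the kinase of centriole duplication, had 8.18, 5.53 and 8.42 RPKM. TOP2A, which untangles sister chromatids, was at 297, 299 and 254 RPKM, with untreated libraries that differed by a log2 ratio of 0.01 and a log2 ratio of −0.23 in G418 A (edgeR adjusted p = 0.481).

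Kinesins of mitosis and of transport had medians of opposite sign. For the 13 mitotic kinesins the median log2 ratio was −0.20, with 9 below and 3 above both untreated libraries, and it was −0.13 over Untreated B alone and −0.15 over Untreated A alone. For the 8 transport and other kinesins it was 0.23, with 1 below and 7 above, and 0.10 and 0.31 over the same libraries alone. The background was 27.9% below and 46.3% above. Untreated B over Untreated A gave medians of 0.03 and 0.20 for the same lists, and the transport list had a median untreated density of only 7.77 RPKM. The difference between the lists was not tested. KIF2C, a microtubule depolymerase at centromeres, was at 61.4, 65.3 and 49.3 RPKM (log2 ratio −0.36, edgeR adjusted p = 0.274). KIF11, which pushes spindle poles apart, was at 104, 93.9 and 77.9 RPKM (log2 ratio −0.34), and KIF20A, needed for cytokinesis, at 53.5, 66.9 and 48.6 RPKM (log2 ratio −0.31). All 3 were lower in G418 A than in each untreated library. KIF23, of the central spindle, lay between them at 92.7, 74.4 and 77.1 RPKM. Among the transport motors, KIF1C was at 7.03, 8.72 and 12.6 RPKM (log2 ratio 0.68, edgeR adjusted p = 0.293). KIF5B, the ubiquitous kinesin-1 heavy chain, was at 109, 99.6 and 114 RPKM. KIF4A and KIF4B are nearly identical genes, so that their separate values are uncertain. Both are counted among the 9 mitotic kinesins below both untreated libraries, and in the pooled lists above.

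Of the 9 CDKs of transcription and other processes, 2 lay above and 4 below both untreated libraries, and the median log2 ratio was −0.01. CDK11A, a kinase of transcription and splicing, was at 17.1, 15.7 and 11.9 RPKM (log2 ratio −0.46). It shares reads with its near-copy CDK11B (log2 ratio −0.25), and both values are uncertain. CDK16, at 40.6 and 63.2 RPKM untreated and 39.9 RPKM in G418 A, had a log2 ratio of −0.38 that shrank to −0.03 over Untreated A alone.

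A further 9 genes matched by name but are best known for other roles, and they held some of the widest values. MAD2L2, a subunit of DNA polymerase zeta and of shieldin, was at 33.7, 41.6 and 70.1 RPKM, a log2 ratio of 0.90 (edgeR adjusted p = 0.090). CDK2AP2 was at 57.9, 35.8 and 77.3 RPKM, and CDK2AP1 at 42.3, 56.3 and 78.7 RPKM, with log2 ratios of 0.72 and 0.68. For both, the untreated libraries were themselves far apart. CENPJ, a protein of the centriole, had the lowest log2 ratio of the 89 genes at −0.75 (9.81, 7.73 and 5.22 RPKM, edgeR adjusted p = 0.130), and KIF1BP, which binds kinesins, had a log2 ratio of −0.45 (106, 100.04 and 75.3 RPKM). Leaving out these 9 genes, the other 80 gave a median of −0.00 with 32 above and 31 below both untreated libraries.

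**Figure D2:**
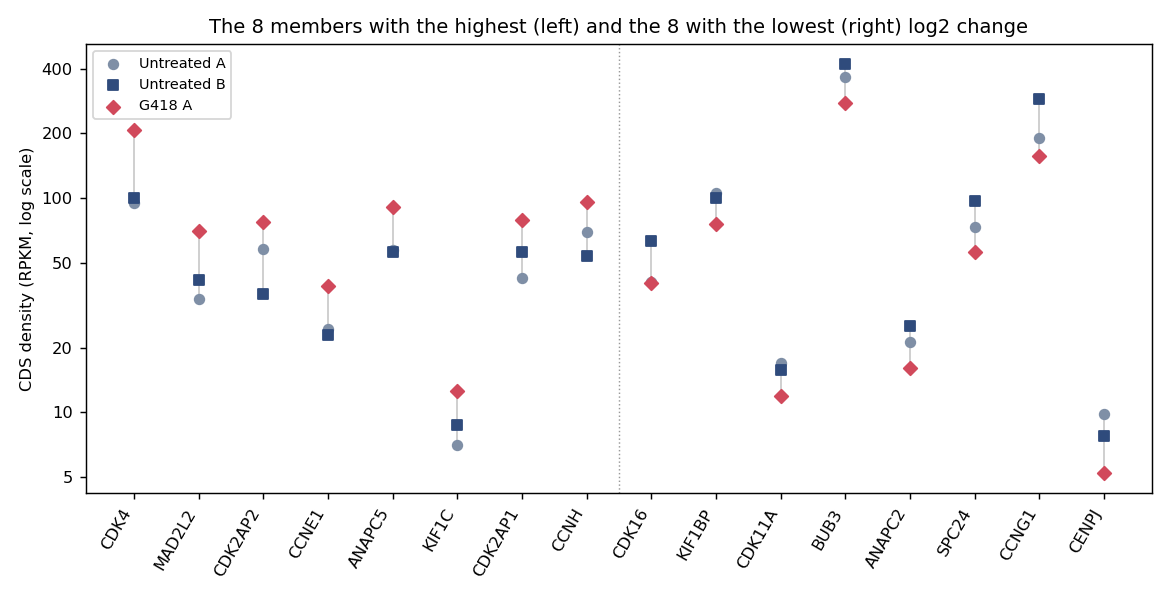
CDS density in each library (y axis, RPKM on a log scale) of the 8 genes with the highest log2 ratio (left of the dotted line) and the 8 with the lowest (right). Each point is 1 library. G418 A lies above both untreated libraries for all 8 on the left, most widely for CDK4 (208 RPKM against 94.8 and 100.5), and below both for all 8 on the right, for CDK16 by less than 1 RPKM.

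The 17 genes under the minimum had 15.3 to 126.7 mean CDS reads, and no test was made of them. Their log2 ratios ran from −0.33 to 1.03 with a median of 0.33, and the median size of the log2 ratio between the untreated libraries was also 0.33. CENPA had the highest value. Just below the minimum lay CDK8 and CENPL with 122.7 and 126.7 mean reads and log2 ratios of 0.53 and 0.65, and just above it CENPB and KIF3B with 131.3 and 132.7 mean reads and −0.29 and 0.13.

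Other genes of mitosis that the naming rule does not reach gave similar counts by the edgeR test. Of 84 such genes, 73 were listed in all 3 libraries and 70 had enough reads. By the edgeR test 2 of 70 rose and 0 fell (background 1.94% and 0.721%), with 7 and 3 at an unadjusted p below 0.05 (background 8.09% and 5.54%). DESeq2 called 0 in either direction (3 and 2 at an unadjusted p below 0.05), but gave no adjusted p to 33 of the 70. The median log2 ratio was −0.01, with 29 above and 30 below both untreated libraries. A log2 ratio of at least 0.5 was found for 9 of the 70 (background 10.7%). At −0.5 or less there were 0 (background 2.62%), unlike the 5 of the 89 genes. UBE2S, the enzyme that extends ubiquitin chains for the APC/C, was at 140.1, 169 and 273 RPKM, a log2 ratio of 0.82 (edgeR adjusted p = 0.00591, DESeq2 0.0847). MYBL2, a transcription factor of G2/M genes, was at 17.4, 29.7 and 42.6 RPKM, a log2 ratio of 0.86 (edgeR adjusted p = 0.0214). DESeq2 gave MYBL2 no adjusted p, and its untreated libraries differed by a log2 ratio of 0.77. Of 9 proliferation transcription factors and Ki-67, 8 lay above both untreated libraries (background 46.3%), with a median of 0.35. The median was 0.59 over Untreated A alone, 0.38 over Untreated B alone and 0.28 with TMM scaling. For Untreated B over Untreated A it was 0.20. RB1 and RBL1, which restrain proliferation, were among the 8, while MKI67, the gene of the proliferation marker Ki-67, lay below both with a log2 ratio of −0.22. For 11 genes of the spindle and cytokinesis, 8 lay below both (background 27.9%), with a median of −0.12. The remaining lists lay near 0. For 18 other kinetochore and checkpoint genes the median was −0.04, with 8 below and 6 above both. For 18 genes of cohesin and condensin it was 0.05 (6 below, 7 above). For 14 APC/C partners and CDK regulators it was −0.04 (7 below, 6 above).

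Turning to the stop codons, readthrough was measured by the ribosome readthrough score (RRTS), the RPF density from the normal termination codon (NTC) to the next in-frame stop in the 3′UTR (3′TC), divided by the density on the CDS. RRTS is written here as a percentage of the CDS density. A pooled RRTS divides the readthrough reads of a set of genes by the reads expected there if ribosomes were as dense as on each gene's CDS. Intervals are exact Poisson 95% intervals, and they cover counting error only. The sequences below show the NTC with the nucleotide after it in capitals (DNA letters, mRNA strand, 15 nt of CDS before it and 11 nt after), from GENCODE v44 transcripts on hg38. All of these stops lie in the last exon of the transcript.

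The first lines are the 8 genes with the highest RRTS in G418 A among those with at least 10 readthrough reads there, from the highest down.
KIF2C: aagaaacggccccagTGACgactgcaaata
CDC27: gaaagtgatgaatttTAACttctggaaatc
CDK2AP1: cggaatgccagatccTAGCtgccttgttgg
NUF2: ttcaaaatgtcaaccTGATtaacaaaatta
CENPU: ctccttgaccagggaTGAGaagagcagtct
KIF22: cgctgtggcgcctccTGACcgtcgtctcct
CDK11A: ttcagcctcaagttcTGAAggtcagagtgg
ANAPC16: accccctcttcaggtTGATactgcctggat
Genes with many readthrough reads at long regions are shown next.
CDK1: cagattaagaagatgTAGCtttctgacaaa
CDK4: gaaggtaatccggagTGAGcaatggagtgg
AURKB: cttcaatctgtcgccTGATggtccctgtca
ANAPC11: gctggaggggcatccTGAGactccttcctc
The last are the genes without a readthrough read at the highest expected number, chosen after their values were seen.
AURKAIP1: tacctgcggggcaaaTGAGtctggcgccgc
ANAPC7: tggttcggcatgcagTGAGggggcggcagc

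The NTC of KIF2C lies at chr1:44767177-44767179 on the plus strand, that of CDC27 at chr17:47120935-47120937 (minus), NUF2 at chr1:163355467-163355469 (plus), KIF22 at chr16:29805308-29805310 (plus) and ANAPC16 at chr10:72233114-72233116 (plus). That of CDK2AP1 lies at chr12:123261736-123261738, that of CENPU at chr4:184695288-184695290 and that of CDK11A at chr1:1702907-1702909, all on the minus strand. CDK1 terminates at chr10:60793973-60793975 (plus), CDK4 at chr12:57748525-57748527 (minus), AURKB at chr17:8204871-8204873 (minus) and ANAPC11 at chr17:81900098-81900100 (plus). AURKAIP1 terminates at chr1:1373801-1373803 (minus) and ANAPC7 at chr12:110374144-110374146 (minus).

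In untreated cells, the 89 genes had 60 readthrough reads in Untreated A and 77 in Untreated B. The pooled RRTS was 1.77% (1.35 to 2.28) and 1.38% (1.09 to 1.72), with a mean of 1.58% ± 0.279 (SD, n = 2). In G418 A there were 1198 readthrough reads, a pooled RRTS of 28.9% (27.2 to 30.5). This is 18.3 times the untreated mean. Over all 5684 transcripts the values were 1.57% and 1.25% in untreated cells and 21.3% in G418 A, 15.2 times the mean. The G418 library thus lay far above both untreated libraries for these genes. No p-value is given, since there was 1 G418 library, and the distance of the 89 genes from the background was not tested.

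Most of the genes took part. Readthrough reads were found for 19 genes (21.3%, Wilson 95% interval 14.1 to 31.0) of Untreated A and 21 (23.6%, 15.98 to 33.4) of Untreated B. With G418 they were found for 68 (76.4%, 66.6 to 84.0). The background in G418 A was 75.8% of transcripts. The median gene had an RRTS of 0 without the drug and of 22.2% with it (18.4% over all transcripts). An RRTS above 100%, that is, a density past the stop above that of the CDS, was seen in G418 A for 8 genes (8.99%, background 7.14%) and in untreated cells for 0. Reads between NTC and 3′TC made up 43.8%, 46.7% and 63.1% of the 3′UTR reads of these genes in Untreated A, Untreated B and G418 A.

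Stop codon use differed a little from the background. UGA ended 51 of the 89 genes (57.3%, 48.9% of all transcripts), UAA 25 (28.1%, 30.01%) and UAG 13 (14.6%, 21.1%). In G418 A the pooled RRTS of these genes was 37.3% (34.7 to 40.0) at UGA, 26.1% (23.1 to 29.4) at UAG and 15.8% (13.6 to 18.4) at UAA, an order in which the counting intervals do not overlap. Over all transcripts the values were 29.9%, 19.2% and 12.2%. Had each gene the pooled RRTS of all transcripts with its stop codon, the 89 genes would reach 22.5%, and 24.4% when the nucleotide after the stop is also matched. In untreated cells the genes ending in UGA had 2.76% and 1.75%, those in UAG 0.81% and 0.83%, and those in UAA 0.97% and 1.13%, so that UAG and UAA did not keep the order seen in G418 A.

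**Figure D3:**
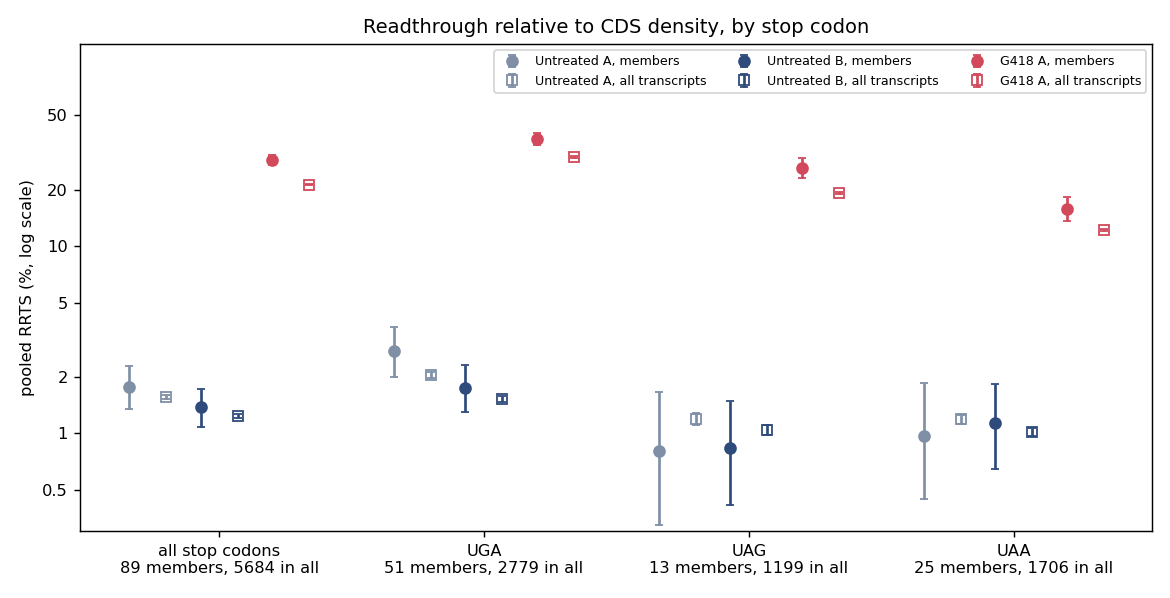
Pooled RRTS (y axis, percent of the CDS density on a log scale) by stop codon and library, for the 89 genes (filled circles) and all transcripts (open squares). Bars are exact Poisson 95% intervals of the readthrough reads. In G418 A the genes stand at 37.3% for UGA, 26.1% for UAG and 15.8% for UAA, above all transcripts in each class, while in untreated cells the intervals of the 2 sets overlap.

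Within UGA, the nucleotide after the stop separated the genes further. Pooled RRTS in G418 A was 71.1% for the 5 UGAU genes and 58.8% for the 12 UGAC genes, compared with 29.7% for the 11 UGAA and 27.8% for the 23 UGAG genes. Over all transcripts the same contexts gave 36.4%, 38.7%, 32.8% and 22.8%. The UGAU value rests mainly on ANAPC16 and AURKB, which hold 102 and 66 of its 192 reads. Of the 124 UGAC reads KIF22 holds 29, and it already had 11 and 10 reads in Untreated A and Untreated B. CDK5RAP3 is also a UGAC gene, and 102 of the 180 nt of its region overlap annotated CDS of another isoform. Genes with a region under 60 nt reached 37.0% (32.9 to 41.5, 42 genes) and those with at least 60 nt 26.95% (25.2 to 28.8, 47 genes), and the corresponding values over all transcripts were 28.9% and 19.5%. Across the 68 genes with readthrough reads in G418 A, Spearman's rho of RRTS with the length of the region was −0.26 (−0.28 across 4310 transcripts). A short region of a weakly read gene needs a high RRTS to hold a single read, so length and detection are bound together in this correlation. The pooled values by length also count genes without readthrough reads. The cause of their difference was not tested.

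The highest RRTS in G418 A, among genes with at least 10 readthrough reads there, was found for KIF2C. Its region of 24 nt held 0, 0 and 25 reads in Untreated A, Untreated B and G418 A, an RRTS of 293% (189.5 to 432). CDC27, a subunit of the APC/C, ended in UAAC and its 30 nt held 1, 0 and 36 reads (277%, 194 to 383). Both genes were picked for their high values, and few reads were expected on such short regions (8.54 for KIF2C and 13.0 for CDC27). CDK2AP1 followed at 161% (81 to 289) with 11 reads on 12 nt, NUF2 at 123% (67 to 206) with 14 reads on 21 nt, and CENPU, of the inner kinetochore, at 112% (63 to 184) with 15 reads on 24 nt. KIF22, a kinesin that binds chromosome arms, reached 109% with 29 reads, CDK11A 106% with 12 and ANAPC16 99.8% (81.4 to 121) with 102. The sequence shown around the stop of CDK11A is the same in its near-copy CDK11B, so the RRTS of CDK11A is uncertain. Of these 8 genes, 6 had C or U after the stop (32 of all 89) and 5 had a region of at most 30 nt (26 of all 89).

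**Figure D4:**
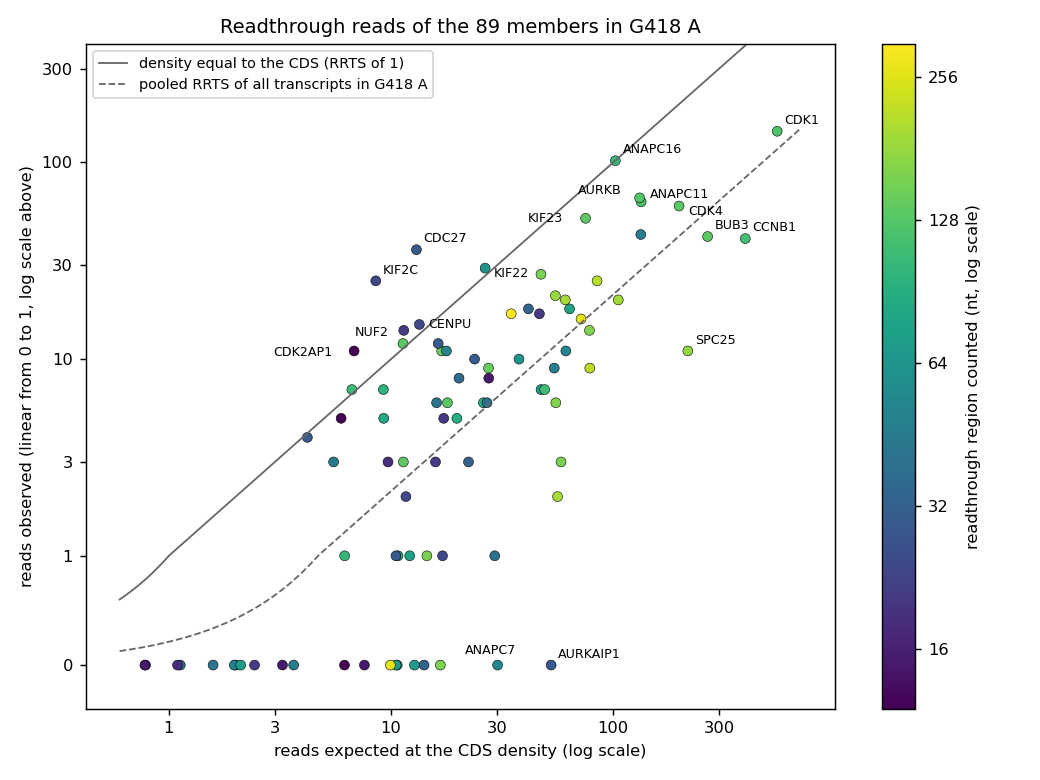
Readthrough reads of each of the 89 genes in G418 A (y axis, linear from 0 to 1 and log above) against the reads expected at its CDS density (x axis, log scale), coloured by the length of the readthrough region counted. The solid line is an RRTS of 1 and the dashed line the pooled RRTS of all transcripts (21.3%). KIF2C and CDC27 lie above the solid line, CDK1 with 144 reads above the dashed line, and AURKAIP1 and ANAPC7 at 0.

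In absolute reads, CDK1, ANAPC16, AURKB, ANAPC11, CDK4 and KIF23 carried 487 of the 1198 readthrough reads (40.7%). CDK1, read at UAGC over 120 nt, had 5, 6 and 144 readthrough reads and an RRTS of 26.3% (22.2 to 31.0) in G418 A. AURKB had 1, 1 and 66 (50.2%, 38.8 to 63.9), and CDK4 had 0, 2 and 60 (30.3%, 23.1 to 39.0). For CDK4 the CDS density and the readthrough reads were thus both higher in G418 A. KIF23 had 4, 5 and 52 reads (69.3%, 51.7 to 90.8). Outside these 6 genes, BUB3 had 0, 0 and 42 (15.8%, 11.4 to 21.3) and CCNB1, at UAAC, 0, 6 and 41 (10.4%, 7.49 to 14.2). Hence genes with many readthrough reads differed several-fold in RRTS within the same library. The intervals of CCNB1 and CDK1, which differ in stop codon, do not overlap. SPC25 had 1, 1 and 11 reads over 177 nt (5.08%, 2.53 to 9.08).

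By role, pooled RRTS in G418 A was highest for the mitotic kinesins (64.9%, 54.0 to 77.3, 125 reads) and the APC/C (58.7%, 51.7 to 66.5, 249 reads). Cyclins (13.6%, 10.9 to 16.8) and transport kinesins (12.7%, 6.07 to 23.3) stood lowest. The untreated values did not follow this order, with 9.42% and 5.32% for the mitotic kinesins, 5.84% and 1.95% for the APC/C, 0.393% and 0.924% for the cyclins and 7.92% and 3.31% for the transport kinesins. Over the untreated mean, G418 A was 8.81 times higher for the mitotic kinesins, 15.1 times for the APC/C, 20.7 times for the cyclins and 2.25 times for the transport kinesins, the last from 4, 3 and 10 reads. The kinesin value came from few genes, since KIF23, KIF22 and KIF2C supplied 106 of the 125 reads and the median RRTS of the 13 was 9.50%. In the APC/C, ANAPC16, ANAPC11 and CDC27 supplied 201 of 249 reads, while the median was 43.3%. The untreated values of both lists, and so their folds, rested largely on 1 gene each. KIF22 held 11 of 17 and 10 of 15 reads of the mitotic kinesins in Untreated A and Untreated B. ANAPC11 held 11 of 18 and 8 of 10 reads of the APC/C. Whether the stop of the ANAPC11 isoform counted is the one mostly used was not tested.

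No readthrough read was found in G418 A for 21 genes. For 19 of them, 0.780 to 16.7 reads were expected at the CDS density, so that a count of 0, taken as up to 3 reads, allowed an RRTS of 18.004% or more. The others were AURKAIP1, a protein of the mitochondrial ribosome, with 52.5 expected reads, and ANAPC7, with 30.2. The same limit of 3 reads gives an RRTS of up to 5.71% and 9.95% for them, and the exact Poisson interval ends at 7.02% and 12.2%. Both end in UGAG, as do CDK4 and ANAPC11, which had 60 and 63 reads. In ANAPC7 the CDS of the deposited annotation differs in length from that of GENCODE v44, while the stop and the distance to the next in-frame stop are the same.

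Readthrough reads were present in both untreated libraries for 11 of the 89 genes (12.4%, background 11.6%), and for CDC26 and CENPP among those under the minimum. KIF22 had 11 and 10 reads in untreated cells and 29 in G418 A. ANAPC11 had 11 and 8 and then 63, on a counted isoform (558 nt of CDS) whose share of the mRNA was not tested. Together these genes held 36.7% and 23.4% of the readthrough reads of the 89 genes in Untreated A and Untreated B but 7.68% in G418 A, and without them the pooled RRTS of G418 A was 24.5 times that of untreated cells (chosen after the values were seen). The other 9 were AURKB, CCNG1, CDC16, CDK1, CDK5RAP3, CENPW, CENPX, KIF23 and SPC25, each with 1 to 6 reads per untreated library. KIF22 has no in-frame stop in its 3′UTR of 69 nt, so that its region runs to the end of the transcript. The same holds for ANAPC2, AURKB, BUB3, CENPT and MAD2L2 (6 of 89, 6.74%, and 4.26% of all transcripts).

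In GENCODE v44 the readthrough region overlaps annotated CDS of another isoform of the same gene for CDK16 (195 of 195 nt), CDK5RAP3 (102 of 180 nt), SPC24 (43 of 210 nt) and KIF5A (34 of 132 nt), and of another gene for none of the 105 transcripts found there. RPFs in these 4 regions may belong to CDS, and their part in the counts was not tested. They held 2, 21, 25 and 0 reads in G418 A.

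Beyond the stop codon, the 89 genes had longer coding regions and shorter 3′UTRs than the background, with medians of 1767 and 608 nt against 1434 and 934.5 nt over all transcripts. The readthrough region was of like length, with a median of 63 against 60 nt. RPFs in the 5′UTR amounted to 1.73%, 1.98% and 1.64% of those on the CDS in Untreated A, Untreated B and G418 A, compared with 1.70%, 1.803% and 1.54% over all transcripts. ANAPC7 was left out of the 5′UTR values because its deposited 5′UTR length is negative and its 5′UTR reads nearly equal its CDS reads (965, 1479 and 993 against 965, 1478 and 987).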

How the data were processed

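RPFs of untreated and G418-treated HEK293T cells were sequenced, with 28 to 35 nt fragments kept. Per the study's methods, the authors collapsed duplicates, aligned with STAR to hg38 (GENCODE v30), kept primary alignments and counted A-site positions on 1 transcript per gene, that with the 3′-most stop. They deposited RPM values, RPKM densities, RRTS as a ratio and whole-number counts. CDS lengths as deposited omit 18 nt at the start and 15 nt at the end, and the readthrough region omits 6 nt after the NTC. Every deposited RPM value was a whole multiple of 1 read, so reads were recovered (100.0% whole within 0.01 read). The deposited CDS counts were 1 lower for 9080 of 9099 transcripts in Untreated A, and were tried as an alternative.

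CDS reads of 5684 transcripts listed in all 3 libraries (mean of at least 128 reads, region of at least 18 nt) were tested with edgeR 4.0.16 (quasi-likelihood, TMM, Benjamini-Hochberg over all 5684). Common dispersion was 0.0154 with 1 residual degree of freedom and infinite prior degrees of freedom. DESeq2 1.42.0, other minimums, scalings and left-out libraries were tried. DESeq2 gave 50 of the 89 genes no adjusted p. Log2 ratios use RPM without a pseudocount. Genes and lists were chosen with earlier results of these data known. Named genes are the 8 highest and 8 lowest log2 ratios, the 8 highest RRTS (at least 10 reads), those read through in both untreated libraries, a list of well-known members, and those nearest the minimum. Others were named after their values were seen.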

Additional observations from a re-analysis of the deposited data

How the results depend on the processing

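The G418 group has 1 library, so a left-out library leaves a value and no test. Short regions and low CDS counts limit RRTS: 21 of the 89 genes had no readthrough read in G418 A. No paired analysis was possible because the groups share fewer than 2 replicate letters.

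Genes of the set called higher numbered 1 without a read minimum and 1 with DESeq2, in place of 2, and none was called lower by edgeR or DESeq2 under any setting run. Other mitosis genes called higher numbered 1 with at least 500 reads and 0 with DESeq2, in place of 2. Genes with a log2 ratio of at least 0.5 numbered 13 without a minimum, 3 with at least 500 reads and 1 at a limit of 1, in place of 8 (8 to 10 with a library left out). Those at −0.5 or less numbered 1 with at least 500 reads and 0 at a limit of 1, in place of 5 (2 without Untreated B to 6 without Untreated A). The median log2 ratio was −0.12 with at least 500 reads, −0.073 with TMM and −0.037 to 0.013 with a library left out. The mean of the deposited RRTS was 3.03%, 1.802% and 36.1% in Untreated A, Untreated B and G418 A, above the pooled values. With regions of at least 60 nt the pooled RRTS in G418 A was 26.95%, and the share of genes with reads 85.1% (87.5% with at least 500 reads). The fold over untreated was 16.3 to 20.9 with a library left out and 24.5 without KIF22 and ANAPC11, an alternative added after seeing the data. Of 40 genes with a log2 ratio followed through left-out libraries and TMM scaling, 31 kept their sign in each and 9 did not. The 40 included the 8 highest and the 8 lowest log2 ratios, which were picked for their size and all kept their sign. The 9 came from the list of well-known members. The cause of these shifts was not tested, apart from the smaller number of genes left by the stricter minimums.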
